A study of Mus musculus with 8 samples.

Results

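Rora, Tcf7l2, Lef1, Prkcd, Rgs16, Adra2b, Slitrk6, Ntng1, Tnnt1 and Synpo2, 10 genes whose transcripts mark the thalamus and habenula, were followed in brain RNA of mice with and without a conditional knockout of Akap11. They were taken by symbol from a given list, and all 10 were found among the 57186 genes counted and the 16766 genes tested. There were 8 libraries of total RNA, 4 from Akap11 conditional knockout (cKO) mice and 4 from control mice. The labels give the tissue as brain with no region. The sources used here give neither strain, age, recombinase line and its promoter, nor the floxed exons, any allele of the controls or whether animals were pooled. They do not say that the libraries come from separate mice. The p-values therefore reflect variation among the 8 libraries, which may be technical. The question put to the genes was whether they differ between the groups and whether they vary together over libraries.

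The thalamus relays sensory and motor signals to the cortex through glutamatergic neurons that project in the internal capsule, and the habenula above it links the forebrain to midbrain monoamine centres. Thalamic relay neurons keep an identity set in development by transcription factors, among them TCF7L2, and express a characteristic group of receptors, kinases and adhesion molecules. None of the 10 genes is confined to these cells. Rora is also strong in cerebellar Purkinje cells, Lef1 in endothelial cells, and Tcf7l2 in differentiating oligodendrocytes.

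The libraries held 13841218 to 19991942 reads in genes in cKO brain and 15752877 to 19818313 in control brain. The library of cKO replicate 1 stood apart, with 63.8% of its listed reads in genes against 73.7% to 79.7% in the others, and 10.1% ambiguous reads against 5.14% to 6.16%. Akap11 (ENSMUSG00000022016), the deleted gene, stood at 214 to 240 CPM (counts scaled by TMM to a common library size) in cKO libraries, against 291 to 373 CPM in control libraries. Its log2 fold change was -0.50 (SE 0.069) with an edgeR adjusted p of 0.0103, or 0.0616 without control replicate 2 and 0.104 without cKO replicate 2. Markers of many regions were present in every library, so the samples were not thalamus alone. The summed CPM of the cortical markers ran from 3069 to 3380 in cKO and from 2992 to 3495 in control libraries. That of the 10 thalamic and habenular genes ran from 306 to 324 in cKO and from 330 to 367 in control libraries. This sum weighs abundant members most, above all Rora (mean 87.9 CPM in cKO, 104 in control brain) and Prkcd (64.1 and 71.3 CPM). The mean log2 level, in which the 10 members count equally, overlapped between the groups, as given below.

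No member passed the test between the groups. By edgeR, 0 of 10 had an adjusted p under 0.05, where 4 of all 16766 genes (0.0239%) did, and the smallest adjusted p among the members was 0.889. DESeq2 and limma voom also called 0 of 10. An unadjusted edgeR p under 0.05 was reached by 4 members, 3 of them lower in cKO brain (Rora, Prkcd, Slitrk6) and 1 higher (Adra2b). Over all genes 4.78% reached it, 1.91% lower and 2.87% higher. With DESeq2 and with limma voom 3 members reached it, all lower. Of all genes 2.25% reached it with DESeq2 (32200 genes) and 4.5% with limma voom. The log2 fold change was below 0 for 8 of 10 members, with a median of -0.11, against 48.8% of all genes and a median of 0.0034. The groups did not overlap for 2 of 10 members, Slitrk6 lower and Adra2b higher. Of all genes 2.96% did not overlap, 1.39% with cKO below control and 1.57% with cKO above. The members were chosen with earlier results of these data known, so these counts describe them and are no test of the set. In bulk RNA such as this, fewer cells of a type and less RNA per cell cannot be told apart.

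**Figure D1:**
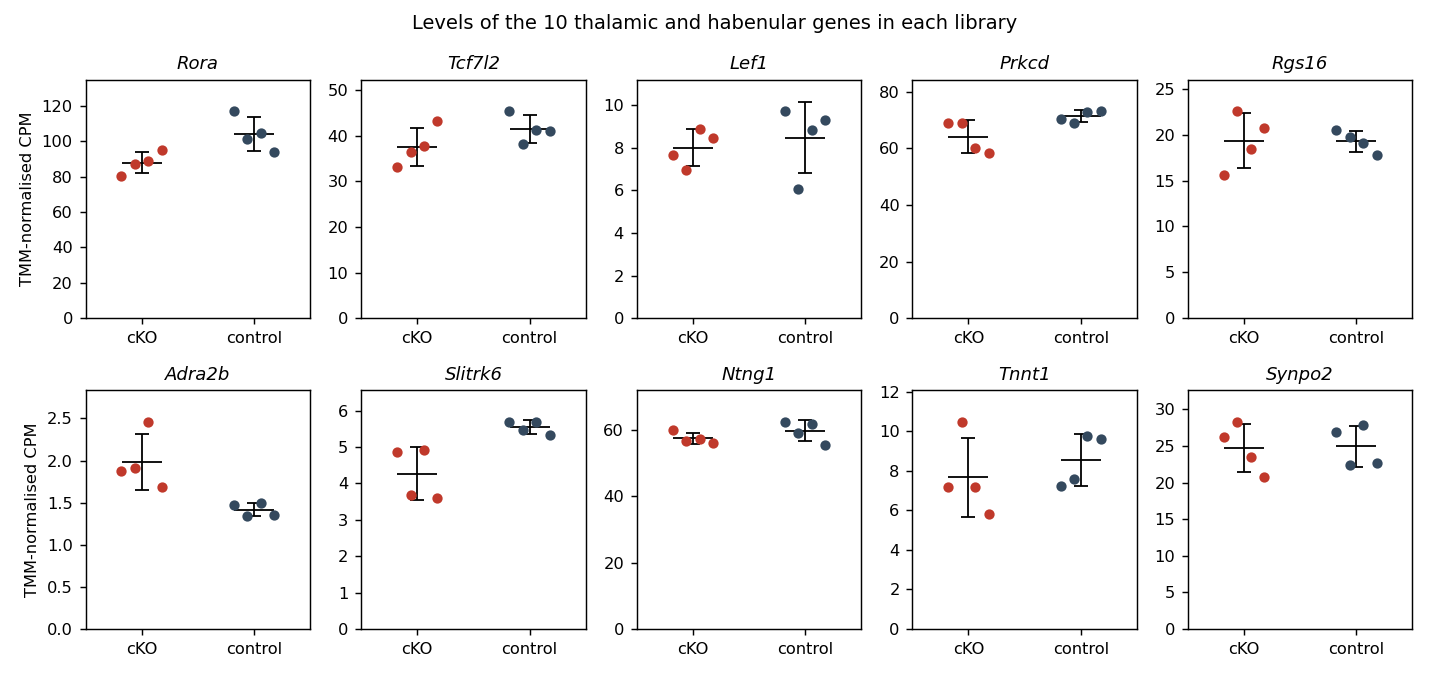
Level of each of the 10 genes in TMM-normalised CPM (vertical axes, each from 0) in the 4 cKO and the 4 control libraries, 1 point a library in the order of replicates 1 to 4, with the mean and SD. The groups are apart for Slitrk6 (lower in cKO) and Adra2b (higher in cKO) and overlap for the other 8 genes.

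By role, the transcription factor genes come first. Rora (ENSMUSG00000032238, chromosome 9) encodes the nuclear receptor ROR alpha, which binds DNA at a half-site as a monomer. Rora stood at 80.3, 87.2, 89.2 and 95.0 CPM in cKO replicates 1 to 4, against 117, 101, 105 and 94.2 CPM in control replicates 1 to 4. In 3 of 4 cKO libraries it was below every control library, and cKO replicate 4 lay just above the lowest control. It averaged 87.9 ± 6.06 CPM in cKO and 104 ± 9.67 CPM in control brain (SD, n = 4 each), 15.6% lower, and the log2 fold change was -0.24 (SE 0.071; interval at 95%, -0.39 to -0.10). Its unadjusted edgeR p of 0.0025 was the lowest of the 10, and its adjusted p was 0.889. An exact two-sided permutation test on CPM gave p = 0.0571, where 4 against 4 allows no less than 0.0286. The unadjusted p stayed under 0.05 in 17 of 17 alternative fits. Without control replicate 1, the highest library, and cKO replicate 1, the lowest, the log2 fold change was -0.14 and the unadjusted edgeR p 0.0180.

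Tcf7l2 (ENSMUSG00000024985, chromosome 19) and Lef1 (ENSMUSG00000027985, chromosome 3) encode 2 of the TCF/LEF factors, DNA-binding partners of beta-catenin in Wnt signalling. Tcf7l2 stood at 33.1, 36.5, 37.6 and 43.2 CPM in cKO replicates 1 to 4, against 45.4, 38.1, 41.2 and 41.0 CPM in control replicates 1 to 4. The same 3 cKO libraries as for Rora were below all controls, while cKO replicate 4 exceeded all but 1 control. The log2 fold change was -0.14 (SE 0.083, 95% interval -0.31 to 0.04; edgeR adjusted p 0.889), and -0.04 without cKO replicate 1 and control replicate 1. With 1 library left out it ran from -0.21 (without cKO replicate 4) to -0.09 (without control replicate 1 or without cKO replicate 1). Lef1 stood at 7.67, 6.96, 8.90 and 8.48 CPM in cKO libraries, against 9.74, 6.05, 8.84 and 9.29 CPM in control libraries. All 4 cKO values lay inside the range of the controls, with a log2 fold change of -0.09 (SE 0.14) and an interval of -0.38 to 0.21. Single libraries moved it between -0.21 (without control replicate 2) and -0.015 (without control replicate 1), with -0.022 without cKO replicate 2, -0.04 without control replicate 4 and -0.15 without cKO replicate 3. Of the 12 oligodendrocyte markers and the 15 tested vascular and meningeal markers 0 passed edgeR's adjusted test, and 0 and 3 reached an unadjusted p under 0.05. The summed CPM of the oligodendrocyte list ran from 5102 to 5854 in cKO and from 5314 to 6395 in control libraries, and that of the vascular and meningeal list from 467 to 493 in cKO and from 449 to 522 in control libraries. Their part in the Tcf7l2 and Lef1 values was not tested.

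The windows from 250 bases before to 50 after annotated gene starts are given for Tcf7l2 and Lef1, for Rora, which varied most closely with Tcf7l2 over libraries, and for Prkcd, the most abundant of the 10 per base. They come from RefSeq on GRCm38.p6, an older build than the GRCm39 of the counts, and matched 10 of 10 members with 15 windows. The TCF/LEF core CTTTGA and the ROR half-site AGGTCA were searched on both strands, with no overlap between them, and capitals mark a match.
Rora, chr9:68653536-68653835, plus strand: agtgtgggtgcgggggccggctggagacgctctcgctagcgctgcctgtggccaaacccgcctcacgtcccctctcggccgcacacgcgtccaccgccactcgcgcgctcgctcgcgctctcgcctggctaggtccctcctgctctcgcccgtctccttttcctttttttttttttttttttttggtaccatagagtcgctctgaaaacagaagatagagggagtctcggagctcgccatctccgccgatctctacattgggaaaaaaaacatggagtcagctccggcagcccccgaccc
Tcf7l2, chr19:55741560-55741859, plus strand: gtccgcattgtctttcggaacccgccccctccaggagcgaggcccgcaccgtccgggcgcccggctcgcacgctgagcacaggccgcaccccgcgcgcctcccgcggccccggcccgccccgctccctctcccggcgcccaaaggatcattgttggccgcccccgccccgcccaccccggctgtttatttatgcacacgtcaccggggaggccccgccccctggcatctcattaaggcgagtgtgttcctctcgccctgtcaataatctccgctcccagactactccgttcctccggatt
Lef1, chr3:131156044-131156343, plus strand: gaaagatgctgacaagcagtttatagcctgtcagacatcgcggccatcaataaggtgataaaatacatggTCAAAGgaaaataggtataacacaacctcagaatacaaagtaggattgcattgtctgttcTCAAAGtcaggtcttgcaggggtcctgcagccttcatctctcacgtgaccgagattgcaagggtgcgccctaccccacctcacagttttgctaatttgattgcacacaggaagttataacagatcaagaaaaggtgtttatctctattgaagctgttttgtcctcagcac
Prkcd, chr14:30626159-30626458, minus strand: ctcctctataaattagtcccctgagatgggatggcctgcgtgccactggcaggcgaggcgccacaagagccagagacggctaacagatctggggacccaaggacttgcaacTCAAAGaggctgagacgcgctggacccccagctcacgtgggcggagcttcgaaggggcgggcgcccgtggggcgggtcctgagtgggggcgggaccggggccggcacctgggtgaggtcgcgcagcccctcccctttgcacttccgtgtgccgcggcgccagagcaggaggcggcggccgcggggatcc
The TCF/LEF core lay in 2 of the 15 member windows (13.3%), against 16.0% of the 32851 windows of all genes, and the ROR half-site in 0 of 15, against 16.3%. The Lef1 window shown is 1 of 4 for that gene and holds 2 matches, beginning 180 and 120 bases before the start, and the other 3 hold none. The Prkcd window shown is 1 of 2 and holds 1 match, beginning 139 bases before the start, and the other window holds none. Neither the window of Rora nor either of the 2 windows of Tcf7l2 holds a motif.

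Prkcd, Rgs16 and Adra2b carry signals. Prkcd (ENSMUSG00000021948, chromosome 14) encodes protein kinase C delta, a kinase that diacylglycerol activates without calcium, and is a classic label of sensory thalamic relay nuclei. Prkcd stood at 69.0, 69.1, 60.1 and 58.3 CPM in cKO replicates 1 to 4, against 70.2, 69.0, 72.9 and 73.2 CPM in control replicates 1 to 4. The difference came from cKO replicates 3 and 4. Replicates 1 and 2 of the cKO group lay beside the lowest control. The mean was 64.1 ± 5.70 CPM in cKO and 71.3 ± 2.08 CPM in control brain (SD, n = 4 each), and the log2 fold change was -0.16 (SE 0.068; interval at 95%, -0.30 to -0.01). The unadjusted edgeR p was 0.0327 and the adjusted p 0.889. It was under 0.05 unadjusted in 13 of 17 alternative fits.

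Rgs16 (ENSMUSG00000026475, chromosome 1) encodes a protein that speeds GTP hydrolysis by G alpha subunits and so shortens signalling by receptors. Rgs16 stood at 15.6, 22.6, 18.5 and 20.7 CPM in cKO libraries, against 20.5, 19.7, 19.1 and 17.8 CPM in control libraries. Its lowest and its highest library were both cKO, replicates 1 and 2. The log2 fold change was 0.01 (SE 0.10, 95% interval -0.20 to 0.23), and its sign changed between fits.

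Adra2b (ENSMUSG00000058620, chromosome 2) encodes the alpha-2B adrenoceptor, a Gi-coupled noradrenaline receptor whose brain transcript is concentrated in the thalamus. Adra2b stood at 1.88, 1.92, 2.46 and 1.69 CPM in cKO replicates 1 to 4, against 1.47, 1.34, 1.49 and 1.36 CPM in control replicates 1 to 4. It is the one member with all cKO libraries above all control libraries. These levels rest on 21 to 49 reads a library. The log2 fold change was 0.49 (SE 0.24), with a 95% interval of 0.0012 to 0.99, an unadjusted edgeR p of 0.0495 and an adjusted p of 0.889. The unadjusted p was under 0.05 in 3 of 17 alternative fits, and without cKO replicate 3, the highest library, the log2 fold change was 0.36. The exact permutation p on CPM was 0.0286, the smallest that 4 against 4 allows.

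Slitrk6 and Ntng1 encode adhesion proteins of axons and synapses. Slitrk6 (ENSMUSG00000045871, chromosome 14) encodes a transmembrane protein with leucine-rich repeats. Slitrk6 stood at 4.85, 3.68, 4.93 and 3.59 CPM in cKO replicates 1 to 4, against 5.70, 5.48, 5.70 and 5.32 CPM in control replicates 1 to 4. All cKO libraries were below all control libraries, which were tightly grouped, while the cKO libraries formed a higher pair (replicates 1 and 3) and a lower pair (replicates 2 and 4). With 66 to 107 reads a library, it averaged 4.26 ± 0.724 CPM in cKO and 5.55 ± 0.183 CPM in control brain (SD, n = 4 each). The log2 fold change was -0.39 (SE 0.15, 95% interval -0.70 to -0.07), with an unadjusted edgeR p of 0.0200, an adjusted p of 0.889 and an exact permutation p of 0.0286. The unadjusted p was under 0.05 in 15 of 17 alternative fits. Slitrk6 and Prkcd lie on chromosome 14, as does Akap11. Of the 561 tested genes of that chromosome other than Akap11, Slitrk6 and Prkcd included, 1.78% were lower at an unadjusted p under 0.05, against 1.91% of all genes. This share covers the whole chromosome and does not single out genes near Akap11. The part of position on the chromosome was not tested.

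Ntng1 (ENSMUSG00000059857, chromosome 3) encodes netrin-G1, a lipid-anchored protein of thalamocortical axons that binds the postsynaptic ligand NGL-1. Ntng1 stood at 59.9, 56.7, 57.2 and 56.0 CPM in cKO libraries, against 62.5, 59.0, 61.9 and 55.5 CPM in control libraries. The cKO values all lay inside the control range, and the log2 fold change was -0.06 (SE 0.063, 95% interval -0.19 to 0.08). It was -0.03 without control replicate 1 and -0.09 without control replicate 4. Its SD over the 8 libraries, 0.065 on the log2 scale, was the smallest of the 10.

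Tnnt1 and Synpo2 encode proteins of the actin cytoskeleton known first from muscle. Tnnt1 (ENSMUSG00000064179, chromosome 7) encodes slow skeletal troponin T. Tnnt1 stood at 7.16, 10.5, 7.19 and 5.82 CPM in cKO replicates 1 to 4, against 7.23, 7.58, 9.74 and 9.59 CPM in control replicates 1 to 4. The cKO group held both the highest and the lowest library. The log2 fold change was -0.16 (SE 0.16, 95% interval -0.49 to 0.18). It was -0.35 without cKO replicate 2, the highest library (unadjusted edgeR p 0.0314, adjusted p 0.898), and -0.04 without cKO replicate 4, the lowest. Without control replicate 3 or 4 it was -0.09 and -0.10. Synpo2 (ENSMUSG00000050315, chromosome 3) encodes an actin-bundling protein of Z-discs. Synpo2 stood at 26.2, 28.4, 23.5 and 20.8 CPM in cKO libraries, against 26.9, 22.4, 27.8 and 22.7 CPM in control libraries. Here too the extremes were both cKO, and the log2 fold change was -0.02 (SE 0.10, 95% interval -0.23 to 0.19), with a sign that changed between fits.

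**Figure D2:**
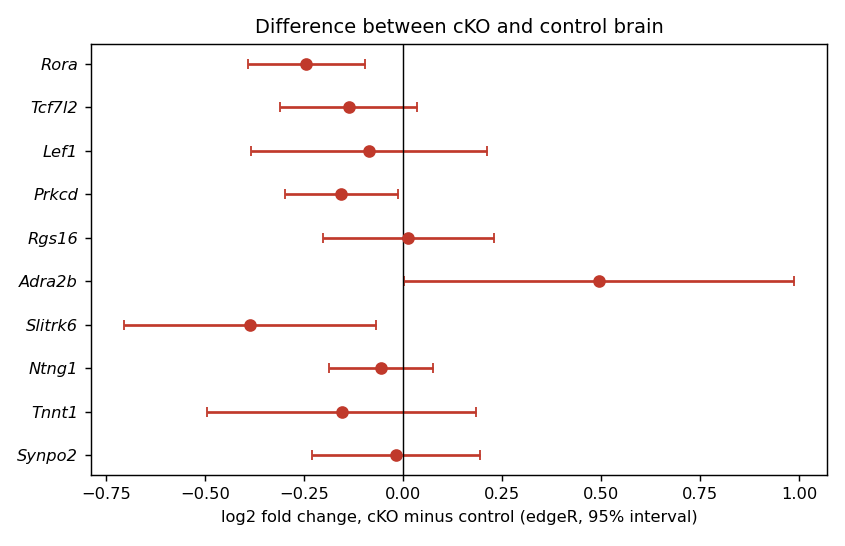
Log2 fold change of each gene, cKO minus control, from edgeR (points) with its 95% interval (bars). The intervals of Rora, Prkcd and Slitrk6 lie below 0, that of Adra2b lies just above 0, and the other 6 include 0.

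The intervals set the changes that these libraries leave room for. For 8 of 10 members the 95% interval lay inside a 1.5-fold change in either direction, and for all 10 inside a 2-fold change. The interval of Slitrk6 reached down to 0.614 times the control level and that of Adra2b up to 1.98 times. These are bounds for the RNA of the whole sample.

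Levels were compared between genes per kilobase of the longest annotated transcript (10878 bases for Rora, 3715 for Tcf7l2). Whether that transcript is the one present in these samples was not tested. The SDs are over libraries and do not cover it. Prkcd led with 22.5 ± 2.0 CPM per kilobase in cKO and 25.0 ± 0.728 in control brain. In control brain Tcf7l2 (11.2 ± 0.815) and Ntng1 (10.7 ± 0.572) followed and did not differ beyond their SDs. Rora (9.59 ± 0.889) was lower than both, by more than any single SD of these genes. Next came Rgs16 (8.24 ± 0.497) and Tnnt1 (8.06 ± 1.24), also within their SDs, then Synpo2 (2.72 ± 0.305) and Lef1 (2.32 ± 0.454). Slitrk6 (1.31 ± 0.0432) and Adra2b (0.352 ± 0.0195) were the lowest. In cKO brain Ntng1 (10.3 ± 0.306) and Tcf7l2 (10.1 ± 1.12) came after Prkcd, and Rora (8.08 ± 0.557) lay beside Rgs16 (8.28 ± 1.28).

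Whether the members vary as a block was read from the 45 pairs of members over the 8 libraries. On log2 CPM, 27 of 45 pairs (60.0%) had a Pearson's r above 0, with a median r of 0.11 and a range from -0.62 to 0.85. Over all 140540995 pairs of genes tested, 49.9% were above 0 and the median r was 0. Of the 9 pairs with Adra2b, 2 were above 0, and of the 36 without it 25 were. With each gene taken as its deviation from the group mean, 26 of 45 pairs were above 0 (median r 0.09). Taken by group, 21 of 45 pairs (46.7%) were above 0 over the 4 cKO libraries and 35 of 45 (77.8%) over the 4 control libraries. Over 4 libraries a single r is not interpretable, and the difference between these counts was not tested. After Benjamini-Hochberg adjustment over the 45 pairs 0 passed an exact permutation test, by Pearson's r or by Spearman's rho. At an unadjusted p under 0.05 there were 2 pairs by each measure.

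**Figure D3:**
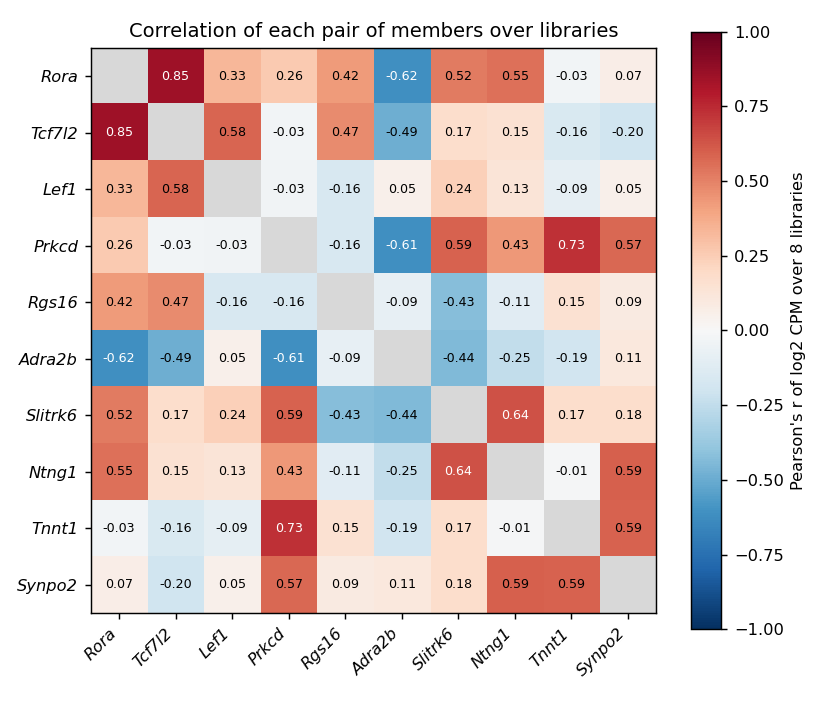
Pearson's r of log2 CPM over the 8 libraries for each pair of members (rows and columns are genes, colour and number give r, grey marks a gene with itself). The pair of Rora and Tcf7l2 (0.85) and the pair of Prkcd and Tnnt1 (0.73) are the highest, and the Adra2b row is mostly below 0.

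Rora and Tcf7l2 were the closest pair. Their Pearson's r was 0.848 (exact permutation p 0.0086, adjusted 0.387) and their Spearman's rho 0.881 (exact permutation p 0.0072, adjusted 0.326) over 8 libraries. In both genes the 4 cKO libraries ranked in the same order, with replicate 1 lowest and replicate 4 highest, and control replicate 1 was the highest library of all. Without control replicate 1 and cKO replicate 1, the libraries farthest from the median of Rora, r was 0.498 (exact permutation p 0.296, n = 6), so the size of r rested in part on those libraries, whose removal also narrows the range of Rora. With any 1 library left out r was between 0.753 and 0.923, and as deviations from the group means it was 0.816. The library of cKO replicate 1 had the 10.1% of ambiguous reads given above, and the part of read quality in the relation was not tested. With GC-content offsets r was 0.725.

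Prkcd and Tnnt1 were the second pair, with a Pearson's r of 0.733 (exact permutation p 0.0350, adjusted 0.662) and a Spearman's rho of 0.762 (exact permutation p 0.0368, adjusted 0.721). Without cKO replicates 3 and 4, the libraries farthest from the median of Prkcd, r was 0.486 (exact permutation p 0.371, n = 6). Prkcd and Synpo2 had an r of 0.574 (exact permutation p 0.164), and Tnnt1 and Synpo2 one of 0.592 (exact permutation p 0.121). As deviations from the group means these were 0.736 and 0.606. Without cKO replicates 3 and 4, r of Prkcd and Synpo2 was -0.107. Without cKO replicate 2 and control replicate 3, that of Tnnt1 and Synpo2 was 0.165. Slitrk6 and Ntng1 (0.636) and Synpo2 and Ntng1 (0.595) had higher r values. Between Prkcd, Tnnt1 and Synpo2 on one side and Rora and Tcf7l2 on the other the r values were between -0.198 and 0.263. As deviations from the group means they were between -0.637 (Prkcd and Tcf7l2) and 0.03 (Rora and Synpo2). The lowest r of all pairs on log2 CPM itself, -0.616, was that of Rora and Adra2b. It was 0.103 when the group means were removed.

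The values by library are those from which these pairs were picked, so they describe the r values and add no support to them. In cKO replicate 4, Prkcd, Tnnt1, Synpo2 and Slitrk6 were at their lowest of all 8 libraries, while Tcf7l2 was at its highest within the cKO group and Rora likewise. In cKO replicate 1 it was Rora, Tcf7l2 and Rgs16 that were at their lowest of all 8 libraries. In cKO replicate 2, Rgs16, Tnnt1 and Synpo2 were at their highest of all. In control replicate 1, Rora, Tcf7l2, Lef1 and Ntng1 were at their highest, and 8 of 10 members lay above their own median. Control replicate 3 also had 8 of 10 above, and cKO replicate 3 had 8 of 10 below. No library held all 10 members on 1 side. A first principal component of the scaled members took 35.0% of their variance. No share expected without shared variation was computed. Its weights were above 0 for 9 of 10 members, highest for Rora (0.43), Slitrk6 (0.41) and Prkcd (0.41). That of Rgs16 was near 0 (0.035), and that of Adra2b was below 0 (-0.37). The cKO libraries lay at -0.43, -0.41, -0.72 and -0.80 on it, against 1.04, 0.15, 0.90 and 0.26 for the control libraries. The groups did not overlap on that component, which is given with no test. It was drawn with the group differences left in, from members chosen with earlier results known, so the separation adds no support. A second component took 24.3%. On the second, Tcf7l2 (weight 0.52) and Rora (0.35) stood against Synpo2 (-0.39), Tnnt1 (-0.39) and Prkcd (-0.35).

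**Figure D4:**
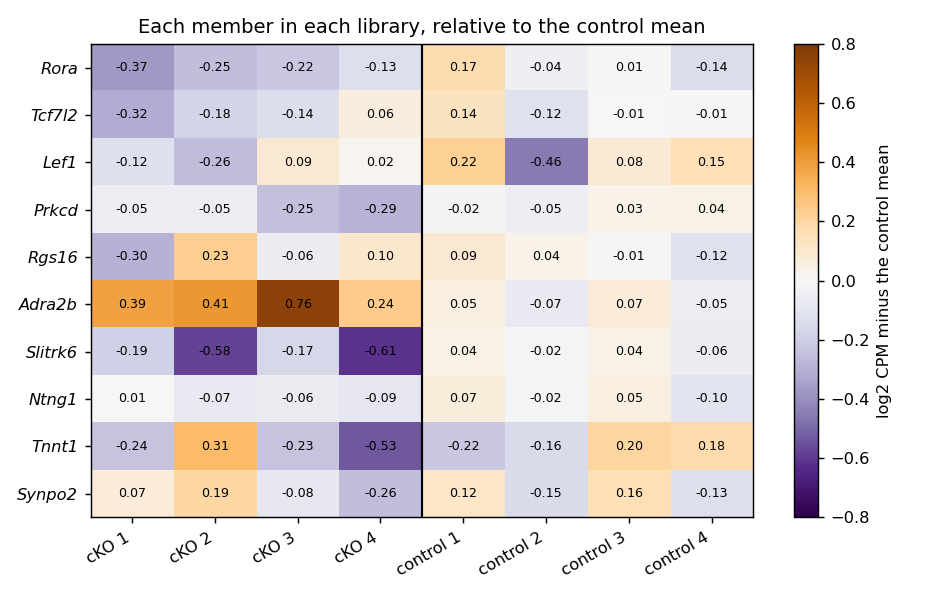
Log2 CPM of each member (rows) in each library (columns, cKO left of the line and control right of it) minus the mean of the 4 control libraries. In cKO replicate 4 the rows of Slitrk6, Tnnt1, Synpo2 and Prkcd are negative while that of Tcf7l2 is positive, and no column has the same sign in all 10 rows.

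The depth limits what co-variation can be seen in the rarest members. The SD of log2 CPM within groups was 0.164 for Adra2b, below the 0.270 that read counting alone would give, and 0.173 for Slitrk6, beside 0.157. For Ntng1 it was 0.063 beside 0.045. The other 7 members varied at least 2.01 times as much as counting alone, up to 3.31 times for Rora. Within groups, then, Adra2b varied no more than counting alone would give, and Slitrk6 little more. Over the 8 libraries r of Slitrk6 was 0.636 with Ntng1 (exact permutation p 0.0955, adjusted 0.662) and 0.588 with Prkcd (exact permutation p 0.0668, adjusted 0.662). With the group means removed these were 0.513 and 0.098. Of the pairs of Slitrk6 7 were above 0, and r was -0.439 with Adra2b and -0.426 with Rgs16. The part of counting error in these values was not tested.

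Averaged over the 10 members, the log2 level relative to the control mean was -0.11, -0.02, -0.04 and -0.15 in cKO replicates 1 to 4, against 0.06, -0.10, 0.06 and -0.02 in control replicates 1 to 4. The groups overlapped, and the difference of -0.08 was of the size of the spread (SD 0.060 in cKO and 0.081 in control brain). The whole span over libraries was 0.213. Lists of other thalamic markers shared some of these high and low libraries and not others. A wider list of 25 thalamic relay genes was highest in control replicate 3 (0.10), where the members were also high (0.06), and lowest in control replicate 4 (-0.11), where the members stood at -0.02. Its second lowest library was cKO replicate 4 (-0.09), the lowest of the members. The list of 12 inhibitory thalamic genes was likewise lowest in cKO replicate 4 (-0.16) and was highest in control replicate 3 (0.05). The 18 habenular genes were highest in cKO replicate 1 (0.08), where the 10 members averaged -0.11.

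**Figure D5:**
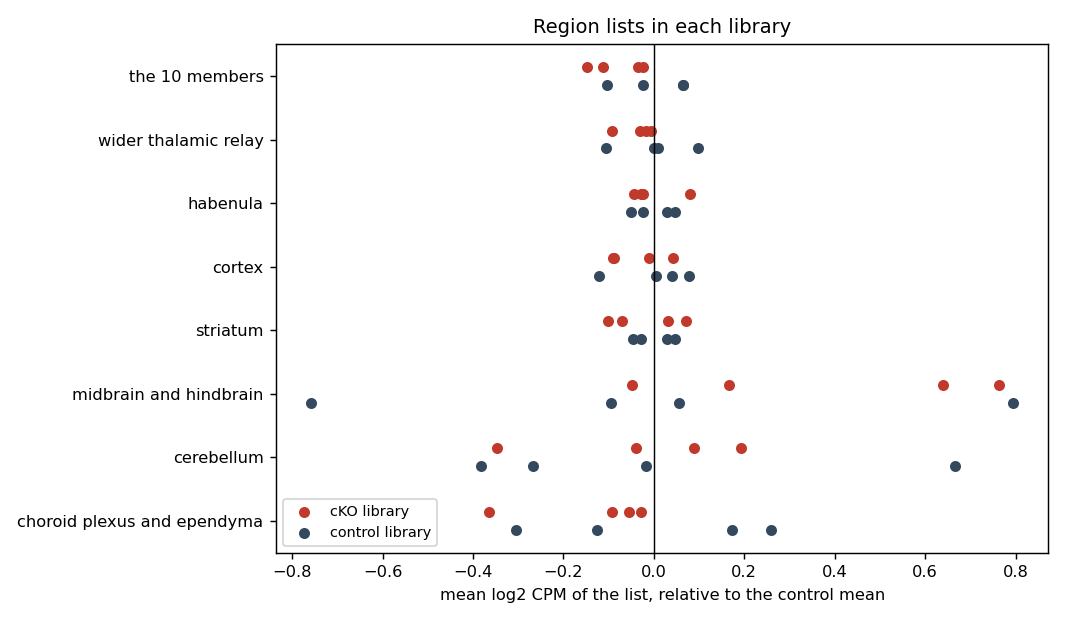
Mean log2 CPM of each gene list relative to the control mean (horizontal axis), 1 point a library, with cKO above control in each row. The 10 members, the wider thalamic and habenular lists, cortex and striatum span at most 0.21, while midbrain and hindbrain span 1.55 and cerebellum 1.05.

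Some lists of other regions spanned more between libraries than the thalamic genes. The midbrain and hindbrain list (13 of 18 genes tested, among them En2 and Slc6a3) spanned 1.55 on the log2 scale, from -0.76 in control replicate 1 to 0.80 in control replicate 3. It stood at 0.76, 0.17, 0.64 and -0.05 in cKO replicates 1 to 4. En2 stood at 1.29 CPM in control replicate 1 and 2.08 CPM in control replicate 3, and Slc6a3 at 14.8 and 17.5 CPM. Neither gene moved as far as the list mean or was at its highest in control replicate 3. Larger differences between group means were those of Slc6a4 (6.90 CPM in cKO, 3.14 in control brain) and Tph2 (11.2 and 6.69 CPM). Of the 13 tested genes 11 had a log2 fold change above 0 and 2 below, and 1, En2, reached an unadjusted edgeR p under 0.05. The cerebellar list spanned 1.05, with its highest value, 0.67, in control replicate 2. In it Cbln3 averaged 1.47 CPM in cKO and 4.00 CPM in control brain, and Fat2 1.48 and 2.40 CPM. Of its 11 tested genes 5 had a log2 fold change below 0 and 6 above. Choroid plexus and ependymal genes, which lie beside the habenula, spanned 0.623. These lists hold rarer genes, with medians of 5.10, 10.8 and 3.57 CPM, than the 10 members with 22.1 CPM. The habenular list, with 18 genes and a median of 4.03 CPM, spanned 0.129. The part of gene abundance in these spans was not tested. The cortical list spanned 0.198 and the striatal list 0.174. Control replicate 1, where the members averaged highest, was the lowest library of the midbrain and hindbrain list and the highest of the choroid plexus list, and the part of dissection in either was not tested.

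Between the groups, the wider lists gave few differences. Of the 25 thalamic relay genes 0 passed edgeR's adjusted test and 2 reached an unadjusted p under 0.05, both lower, with 16 below 0 and a median log2 fold change of -0.05. These were Lhx9, a LIM homeobox gene, at 8.51 ± 0.603 CPM in cKO and 10.3 ± 0.450 CPM in control brain (log2 fold change -0.27, SE 0.11), and Plcb4, a phospholipase C of the thalamus and cerebellum, at -0.14 (SE 0.065). Zic1 followed at -0.15 (SE 0.079) and Ptpn3 at -0.11 (SE 0.060). Slc17a6, encoding the vesicular glutamate transporter of thalamic neurons, averaged 103 CPM in cKO and 109 CPM in control brain. Gbx2, a homeobox gene of the embryonic thalamus, averaged 1.46 CPM in cKO and 1.49 CPM in control brain.

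Of the 18 habenular genes, 0 reached an unadjusted p under 0.05 and the median was -0.04. Irx2 had a log2 fold change of 0.41 (SE 0.24), Chrnb3, a nicotinic receptor subunit gene, -0.26 (SE 0.18), Vwc2l -0.14 (SE 0.088) and Tac1 -0.12 (SE 0.085). The defining transcripts Pou4f1 and Gpr151 of habenular neurons averaged 3.12 and 2.22 CPM in cKO brain, against 2.87 and 2.50 CPM in control brain. Among 12 genes of inhibitory thalamic neurons 1 passed edgeR's adjusted test. It was Nxph1, a neurexin ligand gene that is also active in interneurons elsewhere, which fell by 0.41 on the log2 scale (edgeR adjusted p 0.0333). With 1 library left out it passed in 1 of 8 fits, that without cKO replicate 1, with adjusted p up to 0.238. Gad2, in the same list, stood at -0.10 (SE 0.064).

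The paralogs of the members, 28 of 30 tested, had 19 genes below 0 and a median of -0.05, with 0 past the adjusted edgeR test. Rorb, a paralog of Rora, stood at 36.4 ± 5.58 CPM in cKO and 41.7 ± 4.24 CPM in control brain (log2 fold change -0.19, SE 0.099). Prkca, a calcium-dependent relative of Prkcd, stood at -0.13 (SE 0.065). Adra2a, the alpha-2A adrenoceptor gene, stood at 0.16 (SE 0.088), with 28.9 ± 2.60 CPM in cKO and 25.8 ± 2.45 CPM in control brain. In the cortical, hippocampal, striatal, hypothalamic, midbrain and hindbrain, cerebellar, olfactory bulb and choroid plexus lists 0 genes passed the adjusted edgeR test. Their median log2 fold changes lay between -0.13 (choroid plexus and ependyma) and 0.11 (hypothalamus), where the 10 members had -0.11. The 12 astrocyte markers had a median of 0.03 and 1 gene past the test. It was Aqp4, a water channel gene, at 205 ± 14.9 CPM in cKO and 149 ± 11.8 CPM in control brain (log2 fold change 0.46, SE 0.067, edgeR adjusted p 0.0104). With 1 library left out it passed in 3 of 8 fits, with adjusted p up to 0.159.

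Among 11384 protein-coding genes with a mean of at least 5 CPM, those most like the members were ranked by Pearson's r with the mean of the scaled members over the 8 libraries, as deviations from the group means. Among the highest were Utrn, encoding utrophin (0.986), Pdp2 (0.950), Msx1 (0.949), Plcxd2 (0.943) and Glo1, encoding glyoxalase 1 (0.935). The lowest were Ppp6r2 (-0.986), Pyroxd1 (-0.970) and Cntn5 (-0.960). These are ranks out of many genes over few libraries, and no thalamic, habenular or other list gene was among them.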

How the data were processed

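Each deposited file holds raw, whole-number counts by Ensembl gene for a single library. HISAT2 and GRCm39 are named in the list of tools and builds, per the submitters' processing notes. Which program counted the reads, on which annotation and with which strand setting, the sources used here do not state. The 5 closing entries of each file that name no gene stayed out of library sizes and tests; their shares ranged from 2.15% to 10.4% of listed reads. Of 57186 genes, 51880 matched a symbol in GENCODE M21, whose longest transcripts gave length and GC content. No gene that overlaps a member there held more than 27 reads.

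Genes were filtered with filterByExpr (16766 kept), scaled by TMM and compared with edgeR 4.0.16 (quasi-likelihood, robust, group alone; R 4.3.3). The p-values were adjusted over all tested genes (Benjamini-Hochberg) and called at 0.05. Pairs were correlated on log2 CPM (prior count 2), with exact permutation over the 40320 orders of 8 libraries. Alternatives used DESeq2 1.42.0, limma 3.58.1 (voom), other scalings and filters, GC-content offsets (loess, span 0.5), the replicate number as a block, and libraries left out. The scripts were tested on simulated data.

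All 10 members were described. From each further list the genes with the lowest unadjusted p were named, up to 4 for the thalamic relay, habenular and paralog lists and up to 2 for others; not every gene so chosen is given. Slc17a6, Gbx2, Pou4f1 and Gpr151 were added after their values were seen. Members, lists and tests were chosen with earlier results of these data known. The replicate numbers showed no clear pairing of the libraries: deviations of same-numbered libraries from their group means correlated at 0.005 to 0.049 over genes. No value expected without pairing was computed.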

Additional observations from a re-analysis of the deposited data

How the results depend on the processing

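No member passed the adjusted test under any of the 17 alternatives, and 8 of 10 kept their sign in all of them. Rgs16 (0.01) turned to -0.024 with GC-content offsets and ranged from -0.070 to 0.093 with 1 library left out. Synpo2 (-0.02) ranged from -0.093 to 0.054 with 1 library left out. The number of members with an unadjusted edgeR p under 0.05 was 4, and 2 to 3 with 1 library left out (2 without cKO replicate 3 and in the fits that lack control replicate 3 or 4). It was 3 without control replicate 1 and cKO replicate 1 together (2.84% of all genes) and 3 with GC-content offsets (4.4% of all genes). With 1 library left out the share of all genes ran from 2.73% (without control replicate 1) to 7.22% (without cKO replicate 4).

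Over all genes the calls numbered 4. They numbered 7 with no low-count filter, 2 with control replicate 1 and cKO replicate 1 left out together and 0 to 3 with 1 library left out; the cause was not tested. With the replicate number as a block, 2 genes and 0 members passed. When deviations of libraries from their group means were correlated, cKO replicate 4 alone correlated best with the control library of its own number. Akap11 ranged from -0.55 to -0.42 with 1 library left out; its adjusted p was 0.0616 without control replicate 2 and 0.104 without cKO replicate 2.

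Pairs of members with r above 0 numbered 27, with 24 to 31 when 1 library was left out, 32 with GC-content offsets and 21 without control replicate 1 and cKO replicate 1. In that last case the median r was -0.03. The mean difference of the members (-0.08) ranged from -0.12 to -0.06 with 1 library left out. Depth limits Adra2b (21 to 49 reads a library) and Slitrk6 (66 to 107).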
